A study of Homo sapiens with 18 samples.

Results

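The IκB kinases and the regulators that feed back on them were followed as 10 genes in LNCaP, an androgen-responsive line of human prostate cancer cells. The 10 were chosen by name, with earlier results of these data known. They are CHUK, IKBKB, IKBKG, IKBKE, TBK1, TNFAIP3, TNIP1, BIRC2, BIRC3 and CYLD. Each was read from its RefSeq transcript with the highest total count, among 28100 genes in the count table. All 10 passed the filter on low counts that kept 17073 genes for testing. Polyadenylated RNA was sequenced in 18 libraries, which fall into 6 groups of 3.

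All groups held wild-type LNCaP cells that were first kept in RPMI with 1% heat-inactivated serum and then exposed for 48 h to the treatment medium. The control group received RPMI with 10% heat-inactivated serum, penicillin-streptomycin and L-glutamine. The M0, M1 and M2 groups received medium conditioned by unpolarised, M1-polarised or M2-polarised macrophages of the THP-1 monocytic leukaemia line, diluted 1:4 in that serum-containing RPMI, and are called M0, M1 and M2 medium here. The M1-IKK group received M1 medium with IKK16, an inhibitor of the IκB kinases, at 0.7 μmol/l, and the M1-DMSO group received M1 medium with an equal amount of the solvent. The labels name no DMSO for the control, M0, M1 and M2 groups. The agents used to polarise the macrophages are not stated here. Replicates carry a number in the labels but no mention of separate cultures, so p-values measure the spread between these libraries alone, and that spread may be technical. As these are bulk samples of a cell population, a shift in the share of cells that express a gene and a shift in RNA per cell cannot be told apart.

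NF-κB transcription factors are held in the cytoplasm by IκB proteins until a kinase complex marks the IκB proteins for destruction. The complex is built of the kinases CHUK (IKKα) and IKBKB (IKKβ) and the scaffold IKBKG (NEMO), and it is switched on through ubiquitin chains laid down by enzymes that include BIRC2 and BIRC3 (cIAP1 and cIAP2). IKBKE (IKKε) and TBK1 are related kinases that act on interferon regulatory factors. TNFAIP3 (A20) and CYLD trim the ubiquitin chains, TNIP1 (ABIN1) binds A20 and the chains, and TNFAIP3 and BIRC3 are known as transcriptional targets of NF-κB in many cell types, which makes them part of the pathway's own feedback.

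The promoters of TNFAIP3, BIRC3 and BIRC2 are printed because TNFAIP3 and BIRC3 had the largest rises in M1 medium among the 10, while BIRC2 is the neighbouring paralog of BIRC3. Promoter windows of 300 bases, from 250 before the start to 50 bases from the start on, come from RefSeq on assembly GRCh38.p14, and 9 of the 10 genes had an entry. IKBKB had none. Capitals mark matches, on either strand, to the degenerate κB consensus of 10 bases. All are on the plus strand, 5′ to 3′, at chr6:137867009-137867308 for TNFAIP3, chr11:102317234-102317533 for BIRC3 and chr11:102346964-102347263 for BIRC2.
TNFAIP3: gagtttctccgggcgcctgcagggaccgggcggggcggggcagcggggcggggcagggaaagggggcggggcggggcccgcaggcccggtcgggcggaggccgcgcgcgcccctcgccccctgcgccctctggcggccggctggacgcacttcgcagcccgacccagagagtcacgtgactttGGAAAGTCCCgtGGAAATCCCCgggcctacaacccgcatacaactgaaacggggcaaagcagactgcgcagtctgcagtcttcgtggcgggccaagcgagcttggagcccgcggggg
BIRC3: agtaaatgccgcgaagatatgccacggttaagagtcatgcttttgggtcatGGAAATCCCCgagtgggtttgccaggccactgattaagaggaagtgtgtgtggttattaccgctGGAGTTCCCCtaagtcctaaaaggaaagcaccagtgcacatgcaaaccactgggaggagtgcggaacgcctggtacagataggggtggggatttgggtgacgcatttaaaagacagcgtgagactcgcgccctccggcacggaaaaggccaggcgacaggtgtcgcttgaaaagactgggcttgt
BIRC2: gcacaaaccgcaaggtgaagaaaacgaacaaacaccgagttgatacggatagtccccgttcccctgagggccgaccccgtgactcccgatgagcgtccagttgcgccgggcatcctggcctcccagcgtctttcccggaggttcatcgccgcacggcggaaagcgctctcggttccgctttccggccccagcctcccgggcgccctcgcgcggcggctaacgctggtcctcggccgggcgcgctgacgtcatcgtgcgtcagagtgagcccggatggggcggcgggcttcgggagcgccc

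The first promoter entry listed for a gene was used. For TNFAIP3 the window, from 137867009 on, lies inside the span given below for the gene, which starts at 137866349. Its positions thus refer to a start further downstream than the first base of that span. TNFAIP3 held matches at -67 to -58 (GGAAAGTCCC) and at -55 to -46 (GGAAATCCCC), counted with the start of the promoter entry as 0. BIRC3 held GGAAATCCCC at -199 to -190 and GGAGTTCCCC at -135 to -126. The other 7 windows, BIRC2 included, held no match, and 3956 of all 35116 promoter windows (11.3%) held at least 1. The motif TTCNNNGAA, the core of a STAT site, stands in 7.66% of all windows, and the core of an interferon-stimulated response element (GAAA, any 2 bases, GAAA) stands in 3.57%. Neither was found on either strand in the 9 windows. A match describes letters in the window and says nothing of binding.

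Libraries held 24202741.5 to 33814818 gene counts, and replicates of a group correlated at 0.993 to 0.995 (Pearson, log2 CPM across genes). CPM are counts scaled to library size with edgeR's TMM factors, and values over a group are means ± SD of 3 libraries. The marker sums and the KLK3, FOLH1, CSF1R and CD68 levels given next are scaled to library size alone, without those factors. All 10 luminal prostate markers searched were detected in every group, with summed levels of 8652 to 8823 CPM in control and 2579 to 2684 CPM in M1 medium. These markers did not move together. By the test given below, 6 were lower in M1 medium than in control, 3 were higher and 1 did not pass. Among all genes 32.1% were lower and 32.7% higher. KLK3 went from 3786 ± 177 CPM in control to 153 ± 6.66 CPM in M1 medium, and FOLH1 from 881 ± 46.5 to 1024 ± 22.7 CPM. The 12 macrophage markers summed to 216 to 270.1 CPM over all 18 libraries, with the control at 233 to 235 CPM and M1 medium at 223 to 243 CPM. CSF1R made up most of that sum, at 228 ± 1.30 CPM in control and 194 ± 8.35 CPM in M1 medium. Of the 12 macrophage markers, TYROBP had 0 counts in all 18 libraries, and PTPRC and MRC1 had 0 in the 3 M1 and the 3 M0 libraries. CD14, FCER1G, AIF1 and CD163 were near 0, with 2, 6, 5 and 5 counts over the 3 M1 libraries. Of the 5 macrophage markers high enough to test, LYZ, LAPTM5 and CD68 were higher in M1 medium than in control and SPI1 and CSF1R were lower. LYZ reached 2.28 ± 0.241 CPM in M1 medium. CD68 stood at 5.03 ± 0.275 CPM in control and at 36.5 ± 3.02 CPM in M1 medium. The part of these marker shifts in the results on the 10 genes was not tested.

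In M1 medium against control, 9 of the 10 genes were higher and none was lower by edgeR's quasi-likelihood test (adjusted p under 0.05, over 17073 genes). Among all genes tested, 64.9% passed in either direction, 32.7% were higher and 32.1% lower. The M1 and control libraries did not overlap for 9 of the 10, against 66.2% of all genes. At a change of at least 2-fold, 6 of the 10 were higher, against 10.2% of all genes. IKBKG is among these 6, but by another of its transcripts, NM_003639, it was 1.54-fold higher. These shares are no independent test of the 10, which were chosen with earlier results of these data known. The median log2 fold change of the 10 was 1.40, against -0.00 over all genes. BIRC3 and TNFAIP3 led the rise, followed by IKBKE, CYLD, IKBKG and TNIP1, while IKBKB, BIRC2 and TBK1 rose by less and CHUK did not pass the test.

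**Figure D1:**
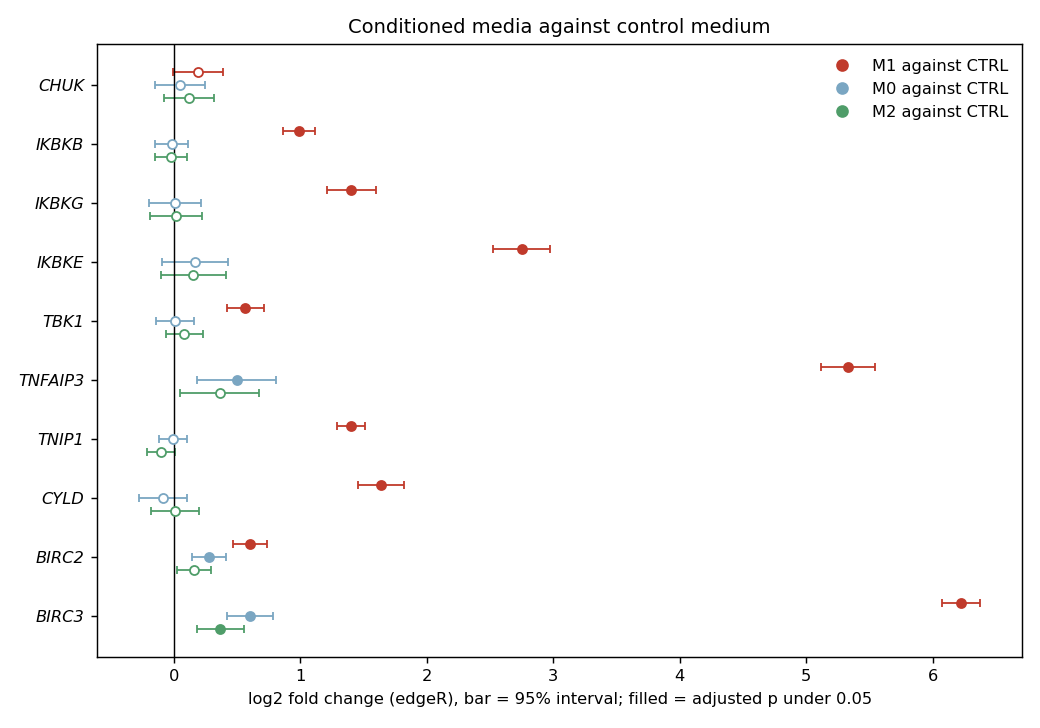
Log2 fold change of each of the 10 genes against control (x axis) in M0, M1 and M2 medium, with bars for the 95% interval of edgeR's fit and filled points for an adjusted p under 0.05. In M1 medium the values run from 0.19 for CHUK to 6.22 for BIRC3, while in M0 and M2 medium all 10 lie between -0.10 and 0.60.

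BIRC3 (chr11:102317484-102339403, plus strand, GRCh38.p14) encodes cIAP2, a ubiquitin ligase that adds chains to RIPK1 and restrains caspase activation. It stood at 4.48, 4.71 and 5.09 CPM in the 3 control libraries and at 352, 379.7 and 335 CPM in M1 medium. Every M1 library lay far above every control library. The fold change was 74.6 (log2 6.22 ± 0.07, SE; edgeR adjusted p = 3.96e-26). Its neighbour BIRC2 (chr11:102347214-102378670, plus strand) encodes cIAP1, which shares the domain plan of cIAP2. BIRC2 stood at 37.6, 36.4 and 40.5 CPM in control and at 58.9, 60.5 and 54.8 CPM in M1 medium. The groups did not overlap, and the fold change was 1.52 (log2 0.61 ± 0.06, SE; edgeR adjusted p = 1.90e-08). Per kilobase of transcript, BIRC2 was above BIRC3 in control (10.2 ± 0.558 against 1.10 ± 0.0712 CPM per kb), and BIRC3 was above BIRC2 in M1 medium (81.9 ± 5.16 against 15.5 ± 0.780 CPM per kb).

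TNFAIP3 (chr6:137866349-137883312, plus strand) encodes A20, a ubiquitin-editing enzyme that ends signalling from the TNF receptor. It stood at 2.37, 1.51 and 1.68 CPM in control, the lowest of the 10 per kilobase, and at 72.7, 76.5 and 74.6 CPM in M1 medium. The lowest M1 library lay well above the highest control library. The fold change was 40.1 (log2 5.33 ± 0.10, SE; edgeR adjusted p = 2.63e-22). TNIP1 (chr5:151029943-151087685, minus strand), which encodes the A20-binding protein ABIN1, was already abundant in control at 93.1, 86.4 and 80.2 CPM. In M1 medium it stood at 226, 221 and 238 CPM, without overlap, and the fold change was 2.64 (log2 1.40 ± 0.05, SE; edgeR adjusted p = 7.93e-17). CYLD (chr16:50742086-50801935, plus strand), a deubiquitinase for linear and lysine-63 chains, stood at 33.8, 27.4 and 32.9 CPM in control and at 98.3, 94.4 and 101 CPM in M1 medium. It rose by a factor of 3.12 (log2 1.64 ± 0.09, SE; edgeR adjusted p = 6.83e-14), and here too the groups did not overlap.

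Of the kinase complex, IKBKB and IKBKG were higher in M1 medium and CHUK did not pass the test. IKBKB (chr8:42271302-42332460, plus strand), the kinase of the canonical branch, stood at 34.3, 39.4 and 38.1 CPM in control and at 75.9, 72.8 and 73.1 CPM in M1 medium. All M1 libraries were above all control libraries, with a fold change of 1.99 (log2 0.99 ± 0.06, SE; edgeR adjusted p = 7.23e-13). CHUK (chr10:100186319-100229596, minus strand), the kinase that also acts in the noncanonical branch, stood at 25.4, 24.0 and 34.5 CPM in control and at 30.9, 32.2 and 32.8 CPM in M1 medium. The third control library lay above all 3 M1 libraries, and the log2 fold change was 0.19 ± 0.10 (SE; 95% interval -0.01 to 0.39; edgeR adjusted p = 0.0837). Without control replicate 3 the log2 fold change of CHUK was 0.37 with an edgeR adjusted p of 0.000223, so the missing call rested on that library.

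IKBKG (chrX:154541238-154565046, plus strand), the scaffold of the complex, stood at 11.7, 10.7 and 9.59 CPM in control and at 27.8, 28.4 and 28.3 CPM in M1 medium, a fold change of 2.65 (log2 1.40 ± 0.09, SE; edgeR adjusted p = 3.14e-12). This value depends on the transcript. The transcript with the highest total, NM_001099856, stood for the gene. NM_003639 held fewer counts in every library and reached 2.71 ± 0.604 CPM in control and 4.19 ± 0.291 CPM in M1 medium. By NM_003639 the fold change was 1.54 (log2 0.63 ± 0.16, SE; edgeR adjusted p = 0.00160). By NM_001145255 it was 1.45 (log2 0.54 ± 0.14, SE; edgeR adjusted p = 0.00239). The rise thus passed the test by each of these transcripts but was smaller by NM_003639 and NM_001145255.

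The lowest of the 6 IKBKG transcripts in the table had 19.4% of the total count of the highest. A near-identical pseudogene, IKBKGP1, adds to the uncertainty of IKBKG, as neither strand use nor how multiply matching reads were counted is given, and the cause of the gap between transcripts was not tested. For the other 9 genes, the lowest transcript of a gene had at least 95.7% of the count of its highest. TBK1 shares 702 exon bases with an antisense gene in GENCODE 29, IKBKE shares 156, TNFAIP3 shares 95, CHUK shares 77, and CYLD shares 27 and 56 with 2 such genes, so those counts could hold antisense reads. CHUK also shares 37 exon bases with ERLIN1 on its own strand. Exon overlaps were not searched for IKBKG.

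**Figure D2:**
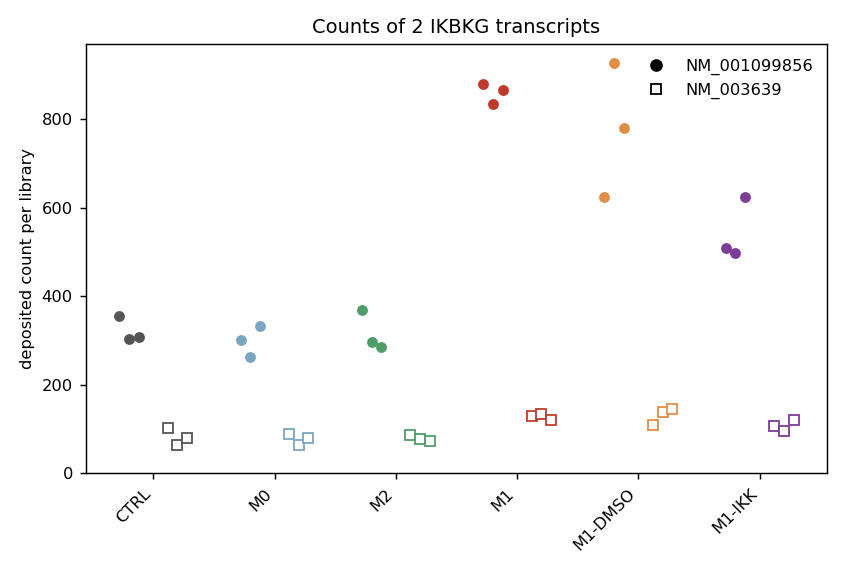
Deposited counts (y axis) of the IKBKG transcripts NM_001099856 and NM_003639 in each of the 18 libraries by group (x axis). NM_001099856 ran from 303.5 to 355 counts in control and from 835.5 to 881 in M1 medium, and NM_003639 from 64 to 102.5 and from 121.5 to 133.

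The IKK-related kinases IKBKE and TBK1 both rose. IKBKE (chr1:206470476-206496889, plus strand) stood at 4.41, 6.39 and 6.67 CPM in control and at 38.7, 39.7 and 39.3 CPM in M1 medium. The M1 libraries lay close together and above all controls, with a fold change of 6.72 (log2 2.75 ± 0.11, SE; edgeR adjusted p = 1.68e-16). TBK1 (chr12:64452120-64502114, plus strand), the more broadly expressed of the pair, stood at 58.2, 58.8 and 67.5 CPM in control and at 91.2, 92.4 and 89.1 CPM in M1 medium. The groups did not overlap, and the fold change was 1.48 (log2 0.56 ± 0.07, SE; edgeR adjusted p = 2.47e-07). Per kilobase, TBK1 stayed above IKBKE in both groups, at 18.9 ± 1.59 against 1.81 ± 0.382 CPM per kb in control and 27.9 ± 0.513 against 12.2 ± 0.157 CPM per kb in M1 medium.

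**Figure D3:**
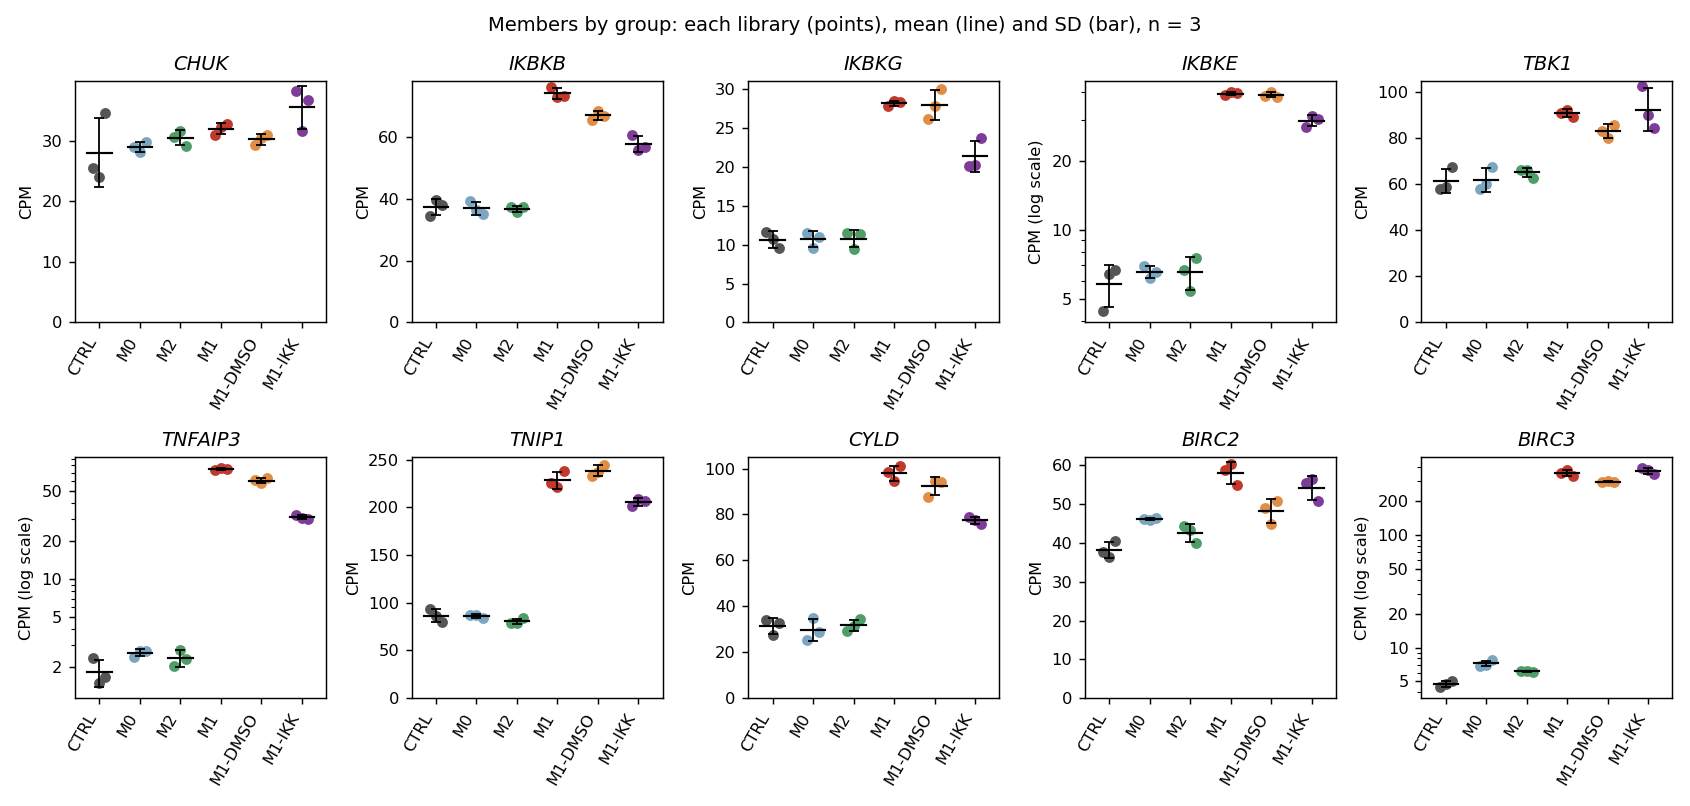
CPM (y axis, on a log scale for IKBKE, TNFAIP3 and BIRC3 and linear from 0 for the others) of each of the 10 genes in every library by group (x axis), with points for libraries, lines for means and bars for SD (n = 3). All libraries given M1 medium stand above all control, M0 and M2 libraries for TNFAIP3, BIRC3, IKBKE, TNIP1, CYLD, IKBKB, IKBKG and TBK1, and BIRC3 runs from 4.76 ± 0.309 CPM in control to 356 ± 22.4 CPM in M1 medium.

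The order of levels per kilobase changed with M1 medium. Lengths are those of GENCODE 29 transcripts, and where transcripts of a gene had nearly the same total count, the longest was used. In control the order ran from TNIP1 (29.5 ± 2.19 CPM per kb) through TBK1, BIRC2, IKBKB, CHUK, CYLD, IKBKG, IKBKE and BIRC3 to TNFAIP3 (0.391 ± 0.0964 CPM per kb), and of neighbours in that order only IKBKB and CHUK had overlapping libraries. In M1 medium BIRC3 (81.9 ± 5.16 CPM per kb) and TNIP1 (77.9 ± 3.02 CPM per kb) came first with overlapping libraries. TBK1 followed, then CYLD and IKBKB, which overlapped, then TNFAIP3 and BIRC2, which overlapped, then IKBKG and IKBKE, which overlapped. CHUK came last at 8.82 ± 0.263 CPM per kb, against 7.71 ± 1.57 CPM per kb in control, where it was the fifth. The IKBKG level carries the limit given above.

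Part of this order depends on the length used. With the length of the very transcript whose counts were read, IKBKB, IKBKE, TNIP1 and IKBKG are shorter and their levels per kilobase higher, while the other 6 genes keep their values. In control IKBKB (15.5 ± 1.11 CPM per kb) then stood above BIRC2 without overlap, and CYLD and IKBKG were the only neighbours that overlapped. In M1 medium TNIP1 (102.1 ± 3.97 CPM per kb) then stood above BIRC3 without overlap, and IKBKB (30.7 ± 0.702 CPM per kb) above TBK1. IKBKE (15.8 ± 0.204 CPM per kb) moved beside TNFAIP3 and BIRC2, and IKBKG (13.6 ± 0.17 CPM per kb) stood next to last. By either length TNFAIP3 was the lowest in control and CHUK the lowest in M1 medium.

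In M0 medium and in M2 medium fewer of the 10 genes passed against control than in M1 medium. In M0 medium 3 were higher than in control and none was lower by edgeR's test, where 11.6% of all genes passed in either direction, 7.06% were higher and 4.51% lower. BIRC3 stood at 6.91, 7.06 and 7.71 CPM in M0 medium, above all 3 control libraries, a fold change of 1.52 (log2 0.60 ± 0.09, SE; edgeR adjusted p = 0.00106). BIRC2 stood at 46.2, 45.9 and 46.4 CPM, also without overlap, a fold change of 1.21 (log2 0.28 ± 0.07, SE; edgeR adjusted p = 0.0145). TNFAIP3 stood at 2.42, 2.72 and 2.70 CPM, above the control libraries, a fold change of 1.41 (log2 0.50 ± 0.15, SE; edgeR adjusted p = 0.0351). The TNFAIP3 call was lost with any 1 library of either group left out (log2 fold change from 0.37 to 0.71, lowest edgeR adjusted p = 0.0537), and the BIRC2 call was lost without replicate 1 of control (edgeR adjusted p = 0.0871) or of M0 (edgeR adjusted p = 0.073).

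In M2 medium 1 of the 10 passed against control and none was lower, where 8.7% of all genes passed, 5.34% were higher and 3.37% lower. The count lies near the share over all genes and is no result about the 10. The gene that passed was BIRC3, at 6.21, 6.16 and 6.05 CPM, above the control libraries, a fold change of 1.29 (log2 0.37 ± 0.09, SE; edgeR adjusted p = 0.0149). The call was lost without control replicate 1 (edgeR adjusted p = 0.0979), M2 replicate 1 (edgeR adjusted p = 0.0871) or M2 replicate 2 (edgeR adjusted p = 0.058). TNFAIP3 stood at 2.06, 2.76 and 2.33 CPM, which overlapped control, with a log2 fold change of 0.36 ± 0.15 (SE; edgeR adjusted p = 0.130). IKBKE, the third most raised in M1 medium, stood at 6.95, 6.17 and 6.55 CPM in M0 and 6.68, 5.39 and 7.52 CPM in M2 medium, with log2 fold changes of 0.17 (95% interval -0.09 to 0.43) and 0.16 (95% interval -0.10 to 0.42) that did not pass. CYLD gave log2 fold changes of -0.09 (95% interval -0.28 to 0.10) in M0 and 0.01 (95% interval -0.18 to 0.20) in M2 medium.

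The media were also compared with each other, over groups that serve in the comparisons above as well. Against M0 medium, 9 of the 10 genes were higher in M1 medium, 7 of them at least 2-fold, where 67% of all genes passed, 33.4% were higher and 10.4% were at least 2-fold higher. Against M2 medium 9 were also higher, again 7 of them at least 2-fold, where 67.5% passed, 33.8% were higher and 10.4% were at least 2-fold higher. In both comparisons CHUK was the gene that did not pass. BIRC3 was 49.1-fold higher than in M0 medium and 57.8-fold higher than in M2 medium. TNFAIP3 was 28.4-fold and 31.2-fold higher. Between M2 and M0 medium 0 of the 10 passed with edgeR or with DESeq2, and 1 had an unadjusted p under 0.05, where 0.105% of all genes passed with edgeR. The gene was BIRC3, with a log2 fold change of -0.24 ± 0.08 (SE; edgeR adjusted p = 0.632).

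IKK16 was tested in M1 medium against its solvent. No group received IKK16 in control medium, and the data hold no measure of kinase activity. Whether the differences with IKK16 are specific to the M1 response or run through the IκB kinases was thus not tested. Of the 10 genes, 6 were lower with IKK16, 1 was higher and 3 did not pass, where 27.1% of all genes passed, 13.2% were lower and 13.9% were higher. The 2 groups did not overlap for 8 of the 10, against 44.4% of all genes. The median log2 fold change of the 10 was -0.21, against 0.00 over all genes. TNFAIP3 fell the most, by almost 2-fold, BIRC3 rose, and each of the 7 genes past the test still stood above every control library with IKK16.

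TNFAIP3 stood at 60.7, 57.8 and 63.0 CPM with DMSO and at 32.3, 30.6 and 30.1 CPM with IKK16. All IKK16 libraries lay below all DMSO libraries, and the level was 1.95-fold lower (log2 -0.96 ± 0.07, SE; edgeR adjusted p = 7.89e-10). Its partner TNIP1 stood at 233, 237 and 245 CPM with DMSO and at 201, 209 and 207 CPM with IKK16, lower in every library (log2 fold change -0.21 ± 0.05, SE; edgeR adjusted p = 0.00311). CYLD stood at 87.7, 94.8 and 94.3 CPM with DMSO and at 79.0, 77.6 and 75.8 CPM with IKK16, again without overlap (log2 fold change -0.25 ± 0.08, SE; edgeR adjusted p = 0.0289). The CYLD call was lost without M1-DMSO replicate 2 or 3 or any 1 of the M1-IKK libraries, with edgeR adjusted p values of 0.051 to 0.098.

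BIRC3 moved the other way. It stood at 293, 301 and 297 CPM with DMSO and at 392, 379.9 and 346 CPM with IKK16, without overlap, 1.25-fold higher (log2 0.33 ± 0.05, SE; edgeR adjusted p = 6.47e-05). BIRC2 stood at 49.0, 44.8 and 50.9 CPM with DMSO and at 55.4, 56.5 and 50.7 CPM with IKK16, where the groups overlapped and the log2 fold change was 0.17 ± 0.06 (SE; 95% interval 0.03 to 0.30; edgeR adjusted p = 0.0565). BIRC2 passed without M1-DMSO replicate 3 (edgeR adjusted p = 0.0385) or M1-IKK replicate 3 (edgeR adjusted p = 0.0251). TNFAIP3 and BIRC3, whose windows were printed because they rose most in M1 medium, thus changed in opposite directions with IKK16. BIRC2, CYLD, IKBKE, IKBKG, TBK1 and TNIP1 also rose in M1 medium, with no κB match in their windows. CHUK, also without a match, did not pass the test there. The part of the κB letters in these changes was not tested.

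**Figure D4:**
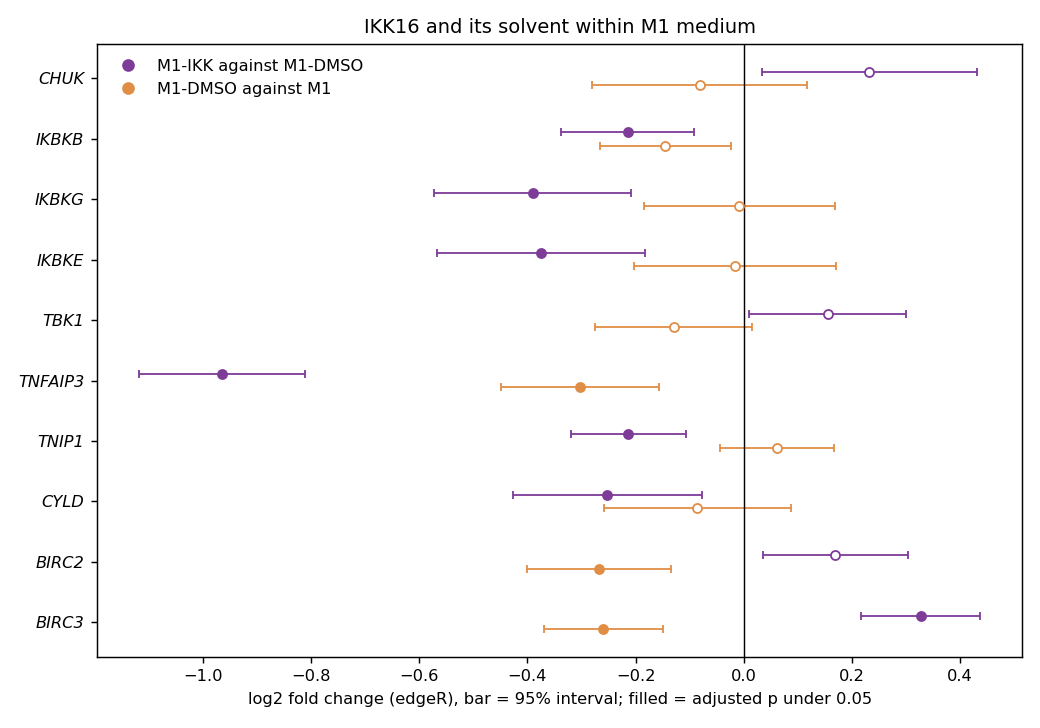
Log2 fold change (x axis) of each of the 10 genes for IKK16 against DMSO and for DMSO against M1 medium alone, with bars for the 95% interval of edgeR's fit and filled points for an adjusted p under 0.05. For IKK16 against DMSO, TNFAIP3 lies lowest at -0.96 and BIRC3 highest at 0.33, while for DMSO against M1 medium they stand at -0.30 and -0.26.

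Among the kinase genes, IKBKE stood at 38.3, 39.8 and 38.0 CPM with DMSO and at 28.1, 31.2 and 30.3 CPM with IKK16, lower in every library (1.30-fold; log2 -0.37 ± 0.09, SE; edgeR adjusted p = 0.00391). IKBKB stood at 65.5, 68.3 and 66.7 CPM with DMSO and at 60.5, 55.7 and 56.6 CPM with IKK16, also without overlap (log2 fold change -0.21 ± 0.06, SE; edgeR adjusted p = 0.00920), a call lost without M1-IKK replicate 2 (edgeR adjusted p = 0.0516). TBK1 was higher with IKK16 in 2 of the 3 libraries than in any DMSO library, at 103, 90.3 and 84.7 against 83.4, 80.0 and 85.9 CPM. Its log2 fold change of 0.15 ± 0.07 (SE; 95% interval 0.01 to 0.30) did not pass (edgeR adjusted p = 0.108), though it did without M1-IKK replicate 3 (edgeR adjusted p = 0.0328). CHUK stood at 29.2, 30.5 and 30.9 CPM with DMSO and at 38.3, 31.5 and 36.6 CPM with IKK16, where no library overlapped and the log2 fold change was 0.23 ± 0.10 (SE; 95% interval 0.03 to 0.43; edgeR adjusted p = 0.0778). Without M1-IKK replicate 2 it passed (edgeR adjusted p = 0.031).

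IKBKG stood at 26.2, 27.8 and 30.0 CPM with DMSO and at 20.2, 20.2 and 23.7 CPM with IKK16 (log2 fold change -0.39 ± 0.09, SE; edgeR adjusted p = 0.00187). By NM_003639 the log2 fold change was -0.16 ± 0.15 (SE; edgeR adjusted p = 0.471) and the call was lost, which leaves 6 of the 10 genes called. By NM_001145255 IKBKG did not pass either (log2 fold change -0.25 ± 0.14, SE; edgeR adjusted p = 0.202). The cause of the difference between the transcripts was not tested.

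With IKK16 in M1 medium, all 10 genes were higher than in control, 6 of them at least 2-fold. Among all genes, 52.4% passed, 26.8% were higher and 7.09% were at least 2-fold higher. IKBKG is among the 6 at 2.01-fold, but by NM_003639 it was 1.56-fold higher. This comparison shares its libraries with those above and is no separate evidence of a response. TNFAIP3 was 16.7-fold above control with IKK16 (log2 4.06 ± 0.11, SE), against 40.1-fold in M1 medium with neither IKK16 nor DMSO. BIRC3 was 78.2-fold above control with IKK16 (log2 6.29 ± 0.07, SE). IKBKE was 5.12-fold above control, CYLD 2.47-fold and TNIP1 2.37-fold. CHUK passed here with a log2 fold change of 0.34 ± 0.10 (SE; edgeR adjusted p = 0.00460), though its groups overlapped. Its control replicate 3 at 34.5 CPM lay above M1-IKK replicate 2 at 31.5 CPM.

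DMSO itself accompanied small differences. In M1 medium with DMSO against M1 medium alone, 3 of the 10 genes were lower and none was higher, where 4.53% of all genes passed, 1.97% were lower and 2.56% higher. BIRC3 was lower (log2 fold change -0.26 ± 0.05, SE; edgeR adjusted p = 0.00941), as were TNFAIP3 (log2 -0.30 ± 0.07, SE; edgeR adjusted p = 0.0191) and BIRC2 (log2 -0.27 ± 0.06, SE; edgeR adjusted p = 0.0210). The BIRC3 libraries with IKK16, which lay above those with DMSO, overlapped those in M1 medium alone. These calls depended on single libraries: 0 remained without M1 replicate 2 or without M1-DMSO replicate 1, and 1 without M1 replicate 1 or without M1-DMSO replicate 2.

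The other genes of the pathway were read from lists chosen with earlier results of these data known. Of the NF-κB subunits and IκB proteins, 10 of 10 were higher in M1 medium than in control, where 32.7% of all genes were higher, with a median log2 fold change of 2.64. NFKBIZ, an atypical IκB protein, rose by 4.89 ± 0.14 on the log2 scale (SE; edgeR adjusted p = 2.48e-19), RELB, the subunit of the noncanonical branch, by 4.53, and the nuclear IκB protein BCL3 by 2.81. With IKK16, 7 of the 10 were lower than with DMSO and none was higher, where 13.2% of all genes were lower, with a median of -0.23. RELB gave -0.52 ± 0.08 (log2, SE; edgeR adjusted p = 2.21e-05), BCL3 -0.47 and NFKB1, the p50 precursor, -0.46. In M0 medium and in M2 medium 2 of the 10 were higher than in control, RELB and NFKBIA in both, where 7.06% and 5.34% of all genes were higher.

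Of 19 adaptors, ubiquitin ligases and kinases upstream of the complex, 14 were higher and 3 lower in M1 medium, where 32.7% of all genes were higher and 32.1% lower, with a median log2 fold change of 0.48. TRAF1, an adaptor of the TNF receptor family, rose by 4.49 ± 0.32 on the log2 scale (SE; edgeR adjusted p = 1.41e-11), TRAF5 by 1.13 and TRAF2 by 0.91. UBE2N, which builds lysine-63 chains, gave -0.45, the kinase adaptor TAB1 gave -0.31 and SHARPIN, of the linear chain assembly complex, gave -0.18. With IKK16, 2 of the 19 were higher and 5 lower, where 13.9% of all genes were higher and 13.2% lower, so the 2 that were higher lie near the share over all genes. MAP3K14 (NIK), the kinase that drives the noncanonical branch and that cIAP1 and cIAP2 help to degrade, was higher at 0.44 ± 0.06 (log2, SE; edgeR adjusted p = 4.17e-06), and TRAF1 was lower at -0.68.

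Of 15 tested partners of A20, CYLD, TBK1 and IKBKE, 10 were higher in M1 medium and none was lower, where 32.7% of all genes were higher and 32.1% lower, with a median log2 fold change of 0.52. OPTN, a ubiquitin-binding adaptor of TBK1, rose by 4.14 ± 0.07 (log2, SE; edgeR adjusted p = 7.31e-23), and TAX1BP1, a partner of A20, by 0.98. STING1, which activates TBK1 when DNA is sensed, rose by 0.97 and was among the 6 of the 15 that were lower with IKK16, where 13.2% of all genes were lower, at -0.45. AZI2 and ITCH were the 2 of the 15 that were higher with IKK16, near the share of 13.9% over all genes. TNIP3 was the one gene of that list too low to be tested. Of 6 tested other inhibitor of apoptosis proteins and antagonists, 3 were higher in M1 medium and 1 was lower, counts of few genes that lie near the shares over all genes of 32.7% and 32.1% and are no result about the list. XIAP rose by 0.66, BIRC6 by 0.52 and DIABLO, which antagonises these proteins, by 0.39. BIRC5 (survivin), which acts in cell division, was lower at -2.01 ± 0.09 (log2, SE; edgeR adjusted p = 1.50e-15) and was the 1 gene of the list that was higher with IKK16 (13.9% of all genes were), at 0.86 ± 0.09 (log2, SE; edgeR adjusted p = 8.51e-08).

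Genes with the most similar pattern were found by Pearson's r of log2 CPM over the 18 libraries among 14800 genes of at least 1 CPM. The values describe shared separation of the M1 groups from the rest. BIRC3 was most like BCAP29 (0.999), then its read-through DUS4L-BCAP29 and ASPH. TNFAIP3 was most like CASP10 (0.998), which encodes an initiator caspase, followed by CD177 and DNAJC12. IKBKE was most like SLC5A1 (0.998), HLA-DRA and ABTB2, CYLD like ZNFX1 (0.997), SLC12A2 and DTX3L, TNIP1 like DDR1 (0.997), TRIM16 and SLC37A1, and IKBKB like CDKN2B (0.994), SERPINE2 and ERAP1. IKBKG was most like GBP4 (0.992), TBK1 like UGP2 (0.985) and BIRC2 like ATP6AP2 (0.969). CHUK had its highest value with HADHA (0.856), and its r with the other 9 genes ran from 0.395 to 0.694.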

How the data were processed

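Expected counts for each RefSeq transcript, in multiples of 0.5 and not normalised, were deposited as 1 table. The submitters' processing notes name hg38, Trimmomatic, BWA 0.7.17 and HOMER 4.10. Their roles, strand use and the handling of multiply matching reads are not given there. Of 70507 transcripts, 69830 were named with the RefSeq gene table of GRCh38.p14, 343 with GENCODE 29, and 334 stayed unnamed and out (0.0883 to 0.109% of counts). Groups were taken from the labels. Each gene was read from its transcript of highest total, and counts were rounded to whole numbers, upward from 0.5. edgeR 4.0.16 (R 4.3.3) was run on all 18 libraries with TMM scaling, filterByExpr, 1 mean per group and the quasi-likelihood test, two-sided, with Benjamini-Hochberg adjustment over 17073 genes in each of 9 comparisons. The common biological coefficient of variation was 0.0627. The SE of a log2 fold change is its size over the root of F.

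The test was tried on simulated counts with known changes. All replicate pairs differed beyond sampling noise (chi-square per gene from 2.63 to 20.3). Alternatives were DESeq2 1.42.0, its size factors, other filters, the longest transcript, only the groups compared, removal of a trend with transcript length, the replicate number as a block and each library left out, and, added after seeing the data, IKBKG by NM_003639 and another length for levels per kilobase. IKBKG was also fitted by NM_001145255, outside the alternatives counted at the end. The members, lists and tests were chosen with earlier results of these data known. Named beyond the 10 are up to 3 passing genes per direction of each list and the most similar genes; SHARPIN was named after its value was seen. One further result is not reported here.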

Additional observations from a re-analysis of the deposited data

How the results depend on the processing

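Of the single-gene results under the alternatives, 1270 kept their direction and side of the threshold, 11 gained a call, 30 lost one and 39 changed sign. The 39 belong to 15 results, 0 of them called as reported or where the sign changed, whose reported log2 fold changes were at most 0.16 in size, and the cause was not tested. With 1 library left out, the log2 fold change in M0 medium against control ran from -0.053 to 0.23 for CHUK, -0.21 to 0.0079 for CYLD, -0.076 to 0.021 for IKBKB, -0.063 to 0.082 for IKBKG, -0.059 to 0.083 for TBK1 and -0.060 to 0.045 for TNIP1. In M2 medium against control it ran from -0.078 to 0.064 for CYLD, -0.078 to 0.023 for IKBKB, -0.012 to 0.28 for IKBKE and -0.055 to 0.10 for IKBKG. In M2 against M0 medium it ran from -0.0016 to 0.23 for CYLD, -0.039 to 0.047 for IKBKB, -0.12 to 0.11 for IKBKE and -0.062 to 0.096 for IKBKG. For DMSO against M1 medium alone it ran from -0.064 to 0.032 for IKBKG. IKBKB in M2 against M0 medium turned from -0.0016 to 0.00094 with DESeq2's size factors, 0.00091 with no filter, 0.0012 with DESeq2, 0.0024 with only the 2 groups fitted and 0.0070 with the length trend removed. IKBKG in M0 medium against control turned to -0.015 with the length trend removed, and by NM_003639 it turned to -0.014 in M2 medium against control, -0.058 in M2 against M0 medium and 0.18 for DMSO against M1 medium alone. Levels per kilobase by another transcript length, added after seeing the data, are given with the order of levels. The log2 fold change in M1 medium ran from 6.18 to 6.27 for BIRC3 and from 5.21 to 5.55 for TNFAIP3. TNFAIP3 stayed lower with IKK16 in every alternative run (highest adjusted p of edgeR or DESeq2 4.81e-08). The number of genes called in M2 medium against control was 0 with only the 2 groups fitted and 2 with the length trend removed, where BIRC2 joined. With 1 library left out it ran from 0 to 2, the number in M0 medium against control ran from 1 to 2, that for DMSO against M1 medium alone from 0 to 3, and that for IKK16 against DMSO from 6 to 8. Only the 2 groups fitted, and the length trend removed, each gave 9 calls for IKK16, with CHUK and BIRC2 added, against 7. The replicate numbers did not pair the samples: same-numbered deviations correlated at -0.148 to 0.154. With the replicate block the numbers of calls were those of the unblocked fit in all 9 comparisons, 9 for M1 medium against control and 7 for IKK16 against DMSO, and no call changed. Depth limits TNFAIP3 most, which had 43 to 72 counts in the control libraries.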
